A study of Mus musculus with 6 samples.

Results

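ID proteins and E proteins are partner families of helix-loop-helix proteins, and the 6 genes examined here are Id1, Id2 and Id3 for the inhibitors and Tcf3, Tcf4 and Tcf12 for the E proteins. They were taken by name from a table of 31017 genes, and all 6 were found in it and passed the filter on low counts, with 14268 genes tested in all. RNA sequencing had been performed on mouse Th17 cells, helper T cells that secrete interleukin 17, after differentiation in culture. The control group, of genotype WT, and the KO group, deficient in RTF1, held 3 libraries each. RTF1 is a nuclear factor that accompanies RNA polymerase II along genes. Strain, age, the way Rtf1 was deleted and the culture conditions are not given in the sources used here, and neither is whether replicates came from separate animals, so p-values measure the spread between these libraries only.

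E proteins are transcription factors that pair through a helix-loop-helix stretch and bind the E-box, a short DNA motif, with the basic stretch that precedes it. ID proteins carry the helix-loop-helix but lack the basic stretch, so an ID protein bound to an E protein keeps it off DNA. In T cells, E proteins are best known for driving thymocyte development, and Id2 and Id3 for shaping effector, memory and regulatory T cells.

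The E-box is written CANNTG and reads alike on both strands. RefSeq promoter windows (GRCm38.p6) existed for 4 of the 6 genes, and the 250 bases before the start site held 1 E-box for Id2, 1 for Tcf3, none for Id3 and 0 to 1 in the 3 windows of Tcf12. Of 32851 windows of this length from 27025 genes, 66.2% held at least 1. The stretches of Id2 and Tcf3 are shown because these genes moved in opposite directions in KO, with the E-box in capitals and any base in a GENCODE M21 exon left off. The Id2 stretch (chr12:25096254-25096342, minus strand) ends 161 bases before the RefSeq start, and the Tcf3 stretch (chr10:80433648-80433885, minus strand) ends 12 bases before it. In GENCODE M21, however, Id2 runs from 25093799 to 25097140 on the minus strand. The Id2 stretch thus lies inside that gene, between exons, and is upstream only of the RefSeq start. The Tcf3 stretch lies outside its gene, which ends at 80433647.
Id2: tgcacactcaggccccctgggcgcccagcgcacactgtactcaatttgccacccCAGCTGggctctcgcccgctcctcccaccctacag
Tcf3: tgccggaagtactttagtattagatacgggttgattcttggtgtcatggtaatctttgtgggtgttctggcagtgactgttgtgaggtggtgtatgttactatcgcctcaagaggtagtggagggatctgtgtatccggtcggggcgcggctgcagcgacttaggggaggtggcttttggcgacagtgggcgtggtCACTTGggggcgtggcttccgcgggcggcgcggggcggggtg
The CAGCTG of Id2 begins 196 bases before the start and the CACTTG of Tcf3 begins 54 bases before it. Stretches at the same place held an E-box in 33.0% of all windows for Id2 and in 64.7% for Tcf3. These matches are letters only, since binding was not measured.

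Total counts per library ranged from 16489813 to 51271226. Rtf1, the check of the labels, held 88.3 to 94.0 CPM in control and 26.2 to 45.3 CPM in KO, where CPM is the count scaled to a common library total with TMM factors (edgeR log2 fold change −1.42 with SE 0.191 and adjusted p = 0.000755). Replicate 3 of each group carried Y-linked RNA (11376 and 5147 counts for 4 genes together), against 1 to 3 counts in each other library. Xist, an RNA of female cells, held 5 and 1 counts in control and KO replicate 3 and 14668 to 28176 in the other libraries. Replicate 3 of each group thus differed in sex from replicates 1 and 2 and came from other animals. Across all tested genes, 46.1% were called at an adjusted p under 0.05, 23.2% higher and 22.9% lower in KO, so a call alone is common in these data. The groups did not overlap in 57.9% of tested genes, with KO higher in 29.9% and lower in 28.0%.

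Of the 6 genes, 5 were called: Id2 and Tcf4 rose in KO, and Id1, Id3 and Tcf3 fell. Tcf12 was not called. Each family thus held members that moved in opposite directions. The groups did not overlap for 5 of the 6, the exception being Id1. The median log2 fold change of the 6 was −0.41, beside 0.013 over all tested genes. In each pair of libraries with the same replicate number, every one of the 6 differed in the same direction as in the whole comparison. For the 5 without overlap any pairing would give this, so only Id1 could have differed.

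**Figure D1:**
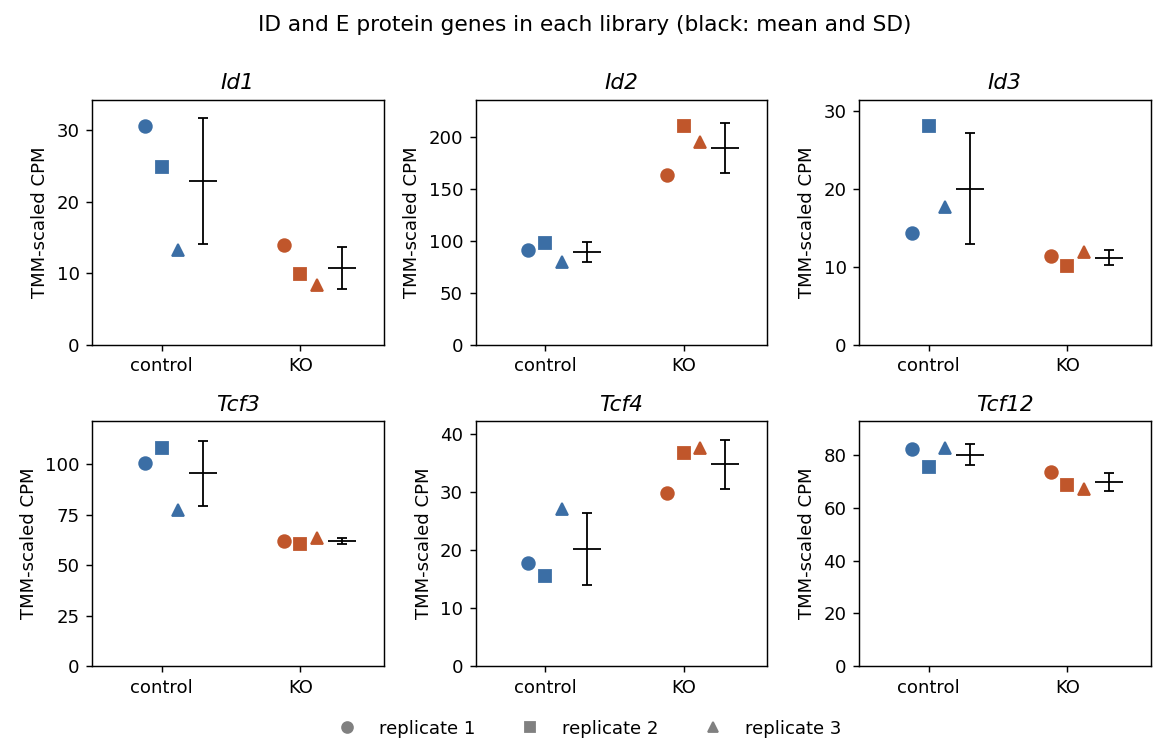
TMM-scaled CPM (y axis, from 0) of the 6 genes in each control (blue) and KO (orange) library, with the marker shape giving the replicate number and the black mark and bar the mean and SD over 3 libraries. Id2 lies between 79.3 and 97.7 CPM in control and between 163 and 211 CPM in KO, while control replicate 3 of Id1 falls within the KO range.

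Id2 (chromosome 12, 25093799 to 25097140, GRCm38) is the ID gene most tied to innate lymphoid cells and effector T cells. Its level, given here and below in the order of replicates 1, 2 and 3, stood at 91.1, 97.7 and 79.3 CPM across the control libraries and at 163, 211 and 195 CPM across the KO libraries. Every KO library lay above every control library. The mean rose from 89.4 ± 9.33 CPM in control to 190 ± 24.1 CPM in KO (SD, n = 3), a 2.12-fold increase (edgeR log2 fold change 1.09 with SE 0.135 and adjusted p = 0.000557). This call was kept in each of the 15 alternative fits, with log2 fold changes of 0.95 to 1.18.

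Id1 (chromosome 2, 152736251 to 152737410) is known as a target of bone morphogenetic protein signalling. It stood at 30.6, 24.8 and 13.3 CPM across the control libraries and at 14.01, 9.93 and 8.34 CPM across the KO libraries. Control replicate 3 lay just below KO replicate 1, so the groups overlapped by this pair. The mean fell from 22.9 ± 8.81 CPM in control to 10.8 ± 2.92 CPM in KO (SD over n = 3; edgeR log2 fold change −1.08 with SE 0.310 and adjusted p = 0.0200). Within the pairs of equal number the log2 differences were −1.12, −1.32 and −0.67. The call was lost when control replicate 1, control replicate 2, KO replicate 2 or KO replicate 3 was left out (log2 fold changes −0.91, −1.03, −1.02 and −0.93, adjusted p = 0.0656, 0.0615, 0.0746 and 0.0654).

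Id3 (chromosome 4, 136143497 to 136145755) is known as a gene induced by T cell receptor signalling. It stood at 14.3, 28.05 and 17.7 CPM across the control libraries and at 11.4, 10.1 and 11.9 CPM across the KO libraries. The KO libraries lay close together and below each control library, and control replicate 2 stood above the other controls. The mean fell from 20.03 ± 7.14 CPM in control to 11.2 ± 0.956 CPM in KO (SD over n = 3; edgeR log2 fold change −0.85 with SE 0.243 and adjusted p = 0.0193). Without control replicate 2 the log2 fold change was −0.54 (adjusted p = 0.0496), and without KO replicate 2 the call was lost (−0.78, adjusted p = 0.0785).

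The remaining ID gene of the mouse genome, Id4, had 1 count in control replicate 3 and none in the other 5 libraries, and was not tested.

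Tcf3 (chromosome 10, 80409514 to 80433647) encodes the E12 and E47 splice forms. It stood at 100.6, 108 and 77.5 CPM across the control libraries and at 61.8, 60.6 and 63.3 CPM across the KO libraries. The KO libraries were nearly equal, and all lay below the lowest control library. The mean fell from 95.4 ± 16.02 CPM in control to 61.9 ± 1.36 CPM in KO (SD, n = 3), to 0.649 of the control level (edgeR log2 fold change −0.62 with SE 0.137 and adjusted p = 0.00639). This call was kept in each of the 15 alternative fits, between −0.81 and −0.54.

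Tcf4 (chromosome 18, 69343356 to 69689079) encodes the E protein best known from plasmacytoid dendritic cells; it is a different gene from Tcf7l2, whose protein is also called TCF4. It stood at 17.8, 15.5 and 27.2 CPM across the control libraries and at 29.9, 36.8 and 37.7 CPM across the KO libraries. All KO libraries lay above all control libraries, and control replicate 3 came within 3 CPM of KO replicate 1. The mean rose from 20.2 ± 6.17 CPM in control to 34.8 ± 4.29 CPM in KO (SD, n = 3), a 1.72-fold increase (edgeR log2 fold change 0.78 with SE 0.216 and adjusted p = 0.0168). The call was lost without control replicate 1, control replicate 2, KO replicate 2 or KO replicate 3 (0.65, 0.61, 0.75 and 0.72, adjusted p = 0.0712, 0.0600, 0.0617 and 0.0516).

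Tcf12 (chromosome 9, 71842688 to 72111871) encodes HEB, the E protein that pairs with the Tcf3 products in thymocytes. It stood at 82.3, 75.5 and 82.9 CPM across the control libraries and at 73.7, 68.7 and 67.3 CPM across the KO libraries. The KO libraries were lower without overlap, but by little. The means were 80.2 ± 4.07 and 69.9 ± 3.40 CPM (SD over n = 3; edgeR log2 fold change −0.20 with SE 0.104 and adjusted p = 0.145), and no alternative fit called it.

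**Figure D2:**
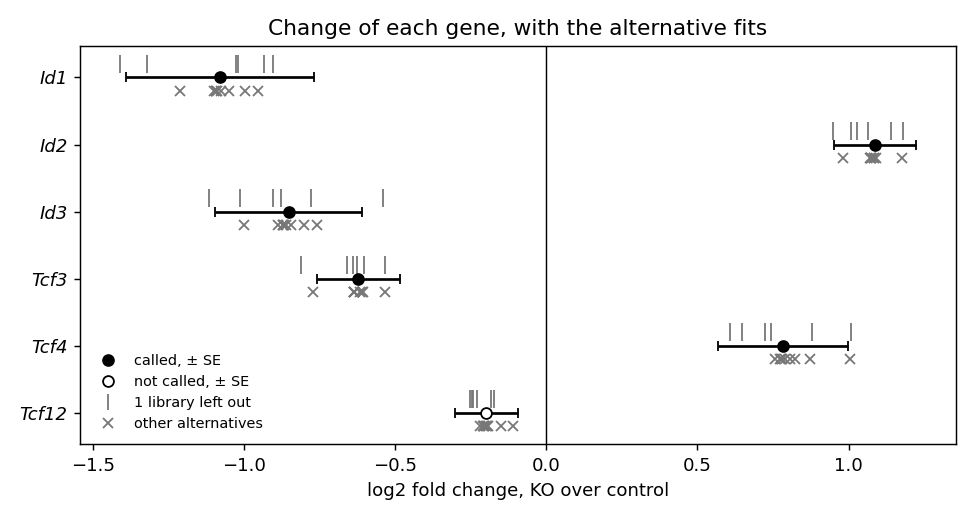
Log2 fold change of KO over control (x axis) for each gene, with the edgeR estimate and its SE as a circle (filled where called), fits with 1 library left out as ticks above and the other alternatives as crosses below. No alternative crosses 0 for any of the 6, and Tcf12 alone has an open circle, at −0.20.

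To compare levels between genes, CPM was divided by the exonic length of each gene, which ran from 1160 bases for Id1 to 27382 bases for Tcf4. In control, Id2 was highest (36.7 ± 3.83 CPM per kilobase), followed by Tcf3 (23.6 ± 3.97), Id1 (19.7 ± 7.60), Id3 (11.2 ± 3.99), Tcf12 (5.17 ± 0.262) and Tcf4 (0.737 ± 0.225; SD, n = 3 each). The ranges of Tcf3 and Id1 overlapped, as did those of Id1 and Id3, so these neighbours were not separated. In KO the order was the same and no neighbours overlapped: Id2 stood at 77.8 ± 9.88 CPM per kilobase, Tcf3 at 15.3 ± 0.338, Id1 at 9.28 ± 2.52, Id3 at 6.23 ± 0.534, Tcf12 at 4.50 ± 0.219 and Tcf4 at 1.27 ± 0.157 (SD, n = 3 each). Among all tested genes, the level of Id2 per kilobase moved from percentile 90.7 in control to percentile 96.2 in KO, and that of Tcf3 from 84.9 to 76.7. Tcf4 remained low on this scale, at percentile 22.5 and then 28.1. With the longest transcript as gene length, Id2 and Tcf3 were again highest and Tcf4 lowest in both groups, but Tcf12 in KO (11.1 ± 0.540 CPM per kilobase) stood above Id1 (9.28 ± 2.52) and Id3 (8.73 ± 0.748; SD, n = 3 each).

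The make-up of each family shifted with these changes. Id2 gave 52.1%, 51.9% and 60.4% of the summed ID level per kilobase across the control libraries, against 78.4%, 85.9% and 85.3% across the KO libraries. Id1 gave 28.6% ± 7.77 of that sum in control and 10.1% ± 3.52 in KO, and Id3 gave 16.6% ± 4.81 and 6.72% ± 0.985 (SD, n = 3). The Id2 share was above every control library in each KO library. Among E proteins, Tcf3 gave 79.7% ± 4.08 of the summed level in control and 72.6% ± 0.581 in KO. Tcf4 gave 2.59% ± 1.14 and 6.02% ± 0.749, and Tcf12 gave 17.7% ± 2.96 and 21.3% ± 1.10 (SD, n = 3). These shares depend on the gene length used. With the longest transcript, the control and KO means were 67.9% and 58.1% for Tcf3, 5.08% and 11.2% for Tcf4, and 27.1% and 30.7% for Tcf12. The order of the E protein genes did not change in any library.

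The summed ID level was 67.6 ± 12.2 CPM per kilobase in control and 93.3 ± 7.57 in KO, and the summed E protein level was 29.5 ± 3.55 and 21.1 ± 0.310 (SD, n = 3). The ratio of the sums was 2.33, 2.39 and 2.11 across the control libraries and 4.04, 4.84 and 4.40 across the KO libraries. The KO libraries all lay above the control libraries. The KO mean of this ratio, 4.43 ± 0.400, was 1.94 times the control mean, 2.28 ± 0.148 (SD, n = 3). With the longest transcript as gene length the means were 3.17 and 1.69, so the ratio itself depends on the length used, while the KO mean remained higher, by 1.87 times. The ratio sums the tested genes and adds no separate evidence, and it counts transcripts, not proteins. In bulk RNA, fewer cells that express a gene and less RNA per cell cannot be told apart.

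**Figure D3:**
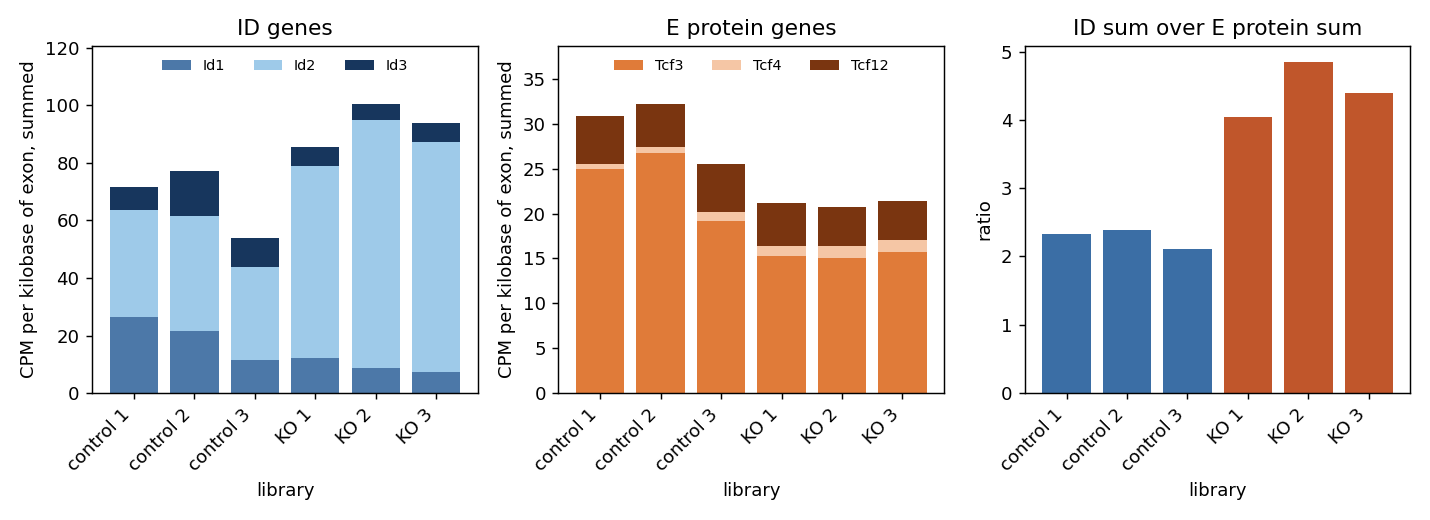
Summed level of the ID genes (left) and the E protein genes (middle) in CPM per kilobase of exon for each library, divided by gene, and the ratio of the sums (right); the y axes start at 0. Id2 fills most of each KO bar on the left, and the ratio lies between 2.11 and 2.39 in control and between 4.04 and 4.84 in KO.

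Other genes around the ID and E proteins were taken from lists by role, written with earlier results of these data known. Among 8 basic helix-loop-helix partners of E proteins, 3 were tested. Of these, 1 was called higher and 1 lower, beside 23.2% and 22.9% of all tested genes. Their median log2 fold change was 0.12, beside 0.013 over all tested genes. Lyl1, a partner best known from blood progenitors and leukaemia, fell from 4.94 ± 2.37 CPM in control to 1.10 ± 0.380 CPM in KO (SD over n = 3; edgeR log2 fold change −2.18 with SE 0.426 and adjusted p = 0.00374). Tal2 was called higher at a trace level, 0.146 ± 0.137 and 0.591 ± 0.212 CPM (edgeR adjusted p = 0.0181), and the call did not hold without control replicate 2 or KO replicate 1. Tal2 passed the low-count filter only through the KO libraries, so the filter itself favoured a higher call. Bhlha15 was not called (adjusted p = 0.848).

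Among 8 co-regulators, 6 were tested, with 1 called higher and 0 lower, beside 23.2% and 22.9% of all tested genes. Their median log2 fold change was 0.20. Ep300, a histone acetyltransferase that E proteins recruit, was called higher (175 ± 27.3 and 228 ± 9.97 CPM; edgeR log2 fold change 0.39 with adjusted p = 0.0417). When single libraries were left out, it passed the threshold in the fit without control replicate 3 and missed it in the other 5. With all libraries, it also missed it under upper-quartile factors and without a filter beyond any count. Its relative Crebbp (0.16, adjusted p = 0.219), Kat2b (0.24, adjusted p = 0.103), Cbfa2t2, Ldb1 and Lmo2 were not called, though Lmo2 was with the replicate number as a block (adjusted p = 0.0375) and without control replicate 3, and Kat2b was under library size as the only scaling.

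The 6 genes for turnover of ID and E proteins were all tested, with 3 called lower and none higher, beside 22.9% of all genes called lower (median log2 fold change −0.54). Taken in either direction, the share called was near the 46.1% of all tested genes. Usp1, a deubiquitinase that stabilises ID proteins, fell from 173 ± 37.5 CPM in control to 88.3 ± 18.3 CPM in KO (SD over n = 3; edgeR log2 fold change −0.97 with SE 0.199 and adjusted p = 0.00466). Its count may be blurred by Gm5841, which shares 21.4% of the 50-base stretches of Usp1. Skp2, the substrate receptor of a ubiquitin ligase, fell from 21.05 ± 4.14 CPM in control to 11.4 ± 2.95 CPM in KO (log2 fold change −0.88, adjusted p = 0.0127), and the call did not hold without KO replicate 2. Fzr1, an activator of the anaphase-promoting complex, was called lower (80.6 ± 10.06 and 62.8 ± 3.61 CPM; −0.36, adjusted p = 0.0410). When single libraries were left out, it passed in the fit without control replicate 3 and missed the threshold in the other 5. With all libraries, it also missed it under library size as the only scaling and in limma-voom. Wdr48, the partner of USP1, was not called (68.2 ± 3.04 and 65.5 ± 2.52 CPM, adjusted p = 0.670), and neither were Stub1 and Asb2. The block by replicate number brought Asb2 past the threshold (adjusted p = 0.00533), as did leaving out KO replicate 3.

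Among 13 upstream regulators of ID genes, all tested, 5 were called higher and 2 lower, beside 23.2% and 22.9% of all tested genes (median log2 fold change 0.41). The share called in either direction was near the 46.1% over all tested genes. Bmpr1a, a type I receptor for bone morphogenetic proteins, stood at 41.9, 44.9 and 47.8 CPM across the control libraries and at 19.7, 15.5 and 15.8 CPM across the KO libraries. It fell without overlap (edgeR log2 fold change −1.40 with SE 0.143 and adjusted p = 0.000251). The type II receptor Bmpr2 rose from 64.4 ± 8.69 CPM in control to 93.8 ± 9.18 CPM in KO (0.54, adjusted p = 0.0110), and Smad5, which carries the signal to the nucleus, from 31.1 ± 3.05 to 51.6 ± 7.31 CPM (0.73, adjusted p = 0.00384). Parts of this pathway thus moved in opposite directions. Smad1 (0.23, adjusted p = 0.160), Smad4 (0.24, adjusted p = 0.118) and Tgfbr1 (adjusted p = 0.844) were not called, although Smad4 was under library size as the only scaling. Acvr1 (0.48, adjusted p = 0.0756) was not called, but passed once replicate number was a block (adjusted p = 0.0499) and under library size as the only scaling. Tgfbr2 was called higher (0.41, adjusted p = 0.0149), and the call did not hold without control replicate 1, KO replicate 2 or KO replicate 3.

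Of the EGR factors, which act on Id3 downstream of the T cell receptor, 1 of 3 was called, beside 46.1% of all tested genes. Egr1 rose from 44.8 ± 16.5 CPM in control to 85.8 ± 7.38 CPM in KO (SD, n = 3; edgeR log2 fold change 0.94 with adjusted p = 0.0160). Egr2 (0.47, adjusted p = 0.285) and Egr3 (−0.43, adjusted p = 0.336) were not called, although Egr3 was without control replicate 3. Prdm1, which encodes the repressor BLIMP1, stood at 0.365, 0.619 and 1.05 CPM across the control libraries and at 7.21, 6.44 and 15.3 CPM across the KO libraries (3.75 with SE 0.471, adjusted p = 0.000585). The lowest KO library was thus above the highest control library. Gfi1, a repressor that stands in the list of E protein targets as well, fell from 38.6 ± 11.2 CPM in control to 14.7 ± 1.61 CPM in KO (−1.39 with SE 0.219, adjusted p = 0.00151).

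Of 16 reported E protein target genes, 12 were tested, with 3 called higher and 4 lower, beside 23.2% and 22.9% of all tested genes, and their median log2 fold change was −0.054. The share called was again near that over all tested genes. Rag2, Rag1, Ptcra and Hes1, known from thymocytes, were too low to test, with means of no more than 0.285 CPM in either group. Il7r, the interleukin 7 receptor, fell from 138 ± 48.7 CPM in control to 61.5 ± 3.65 CPM in KO (SD over n = 3; edgeR log2 fold change −1.17 with SE 0.218 and adjusted p = 0.00307). Cd4 fell from 486 ± 48.6 CPM in control to 254 ± 36.04 CPM in KO (−0.94 with SE 0.144, adjusted p = 0.00132), and Gfi1 fell as above. Ccr7, a lymph node homing receptor, was called lower (−0.49, adjusted p = 0.0233), and the call did not hold without control replicate 2, KO replicate 1 or KO replicate 2.

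In the other direction, Socs3, a feedback inhibitor of cytokine signalling, stood at 76.4, 76.0 and 105 CPM across the control libraries and at 198, 231 and 217 CPM across the KO libraries (edgeR log2 fold change 1.33 with SE 0.151 and adjusted p = 0.000395). Cxcr5, the follicular homing receptor, was called higher at a low level (5.93 ± 0.775 and 11.2 ± 2.89 CPM, adjusted p = 0.0136), and the call did not hold without control replicate 1 or KO replicate 2. Cdkn1a (0.47, adjusted p = 0.0146) lost its call without control replicate 1, control replicate 3 or KO replicate 3. Socs1, Foxo1, Dtx1, Notch1 and Notch3 were not called. With the replicate block, Notch1 and Notch3 were called (adjusted p = 0.0329 and 0.0144), and Notch3 was in limma-voom and without control replicate 3 as well. Control counts of Notch3 were 4, 9 and 89, so it passed the low-count filter only through the KO libraries. The filter itself thus favoured a higher call of Notch3.

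**Figure D4:**
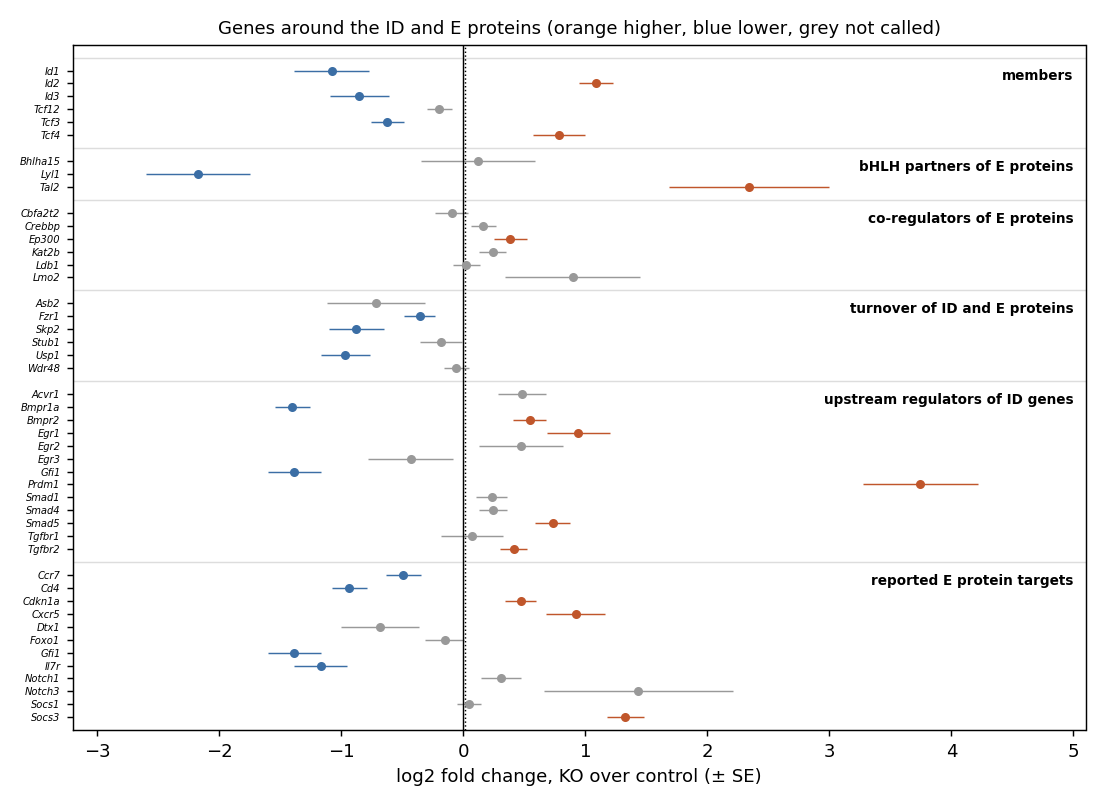
Log2 fold change of KO over control (x axis, bars show the SE) for the 6 genes and for the tested genes of 5 role lists, orange where called higher, blue where called lower and grey where not called; the dotted line is the median of all tested genes, 0.013. Called genes lie on both sides of 0 in 3 of the 5 role lists. The 3 called turnover genes all lie below it, but Skp2 and Fzr1 lost their calls in some alternative fits.

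For each of the 6 genes, the closest profiles over the 6 libraries were sought among tested genes averaging 5 CPM or more, as the root-mean-square difference of log2 CPM after centring each gene on its own mean. Nearest to Id2 were Gskip (0.040), Med7 (0.055) and Lrrc57 (0.055), and nearest to Id1 were Fanca (0.079), Gen1 (0.088) and Traip (0.127). Id3 had no neighbour as close, with Tnfaip8l1 (0.167), Hmgb1 (0.178) and Sit1 (0.184). Tcf3 was nearest to Mrps26 (0.036), Kcnn4 (0.054) and Ttll1 (0.059), Tcf4 to S1pr1 (0.054), Ezh1 (0.061) and Mroh1 (0.063), and Tcf12 to Ambra1 (0.023), Dnm1l (0.031) and Rfx7 (0.033). These are descriptions over 6 libraries in 2 groups, so genes of like fold change come out as alike.

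Markers of the labelled cell type and of other cells that express ID or E proteins were checked beside these results. The 6 T cell markers (Cd3e, Cd3d, Cd3g, Cd4, Cd2, Lck) summed to 1719 to 2060 CPM in control and 1436 to 1634 CPM in KO. The 5 Th17 markers used were present in every library, and their sum was 1511 to 2051 CPM in control and 491 to 1150 CPM in KO. By edgeR, 4 of the 5 were called lower, beside 22.9% of all tested genes. With single libraries left out, the call was lost in 4 of 6 fits for Ccr6, 3 for Il17f, 2 for Il23r and 0 for Il17a. Ccr6 also lost it under library size as the only scaling. Of the T cell markers, 2 were called higher and 3 lower, beside 23.2% and 22.9% of all tested genes. Of these, Cd3g lost its call in 4 of 6 such fits. Beside the rise of Id2, the 6 NK and innate lymphoid markers summed to 3.90 to 6.02 CPM in control and 32.6 to 43.8 CPM in KO, most of it Il18r1 (4.75 ± 0.916 and 33.8 ± 5.40 CPM). All 3 tested markers of this list were called higher by edgeR without overlap: Il18r1 (adjusted p = 7.03e-05), Eomes, from 0.0991 ± 0.0574 to 1.55 ± 0.603 CPM (adjusted p = 0.000946), and Zbtb16, from 0.229 ± 0.280 to 2.66 ± 0.884 CPM (SD, n = 3; adjusted p = 0.00433). Control counts were 1, 8 and 3 for Eomes and 9, 1 and 5 for Zbtb16, so both passed the low-count filter only through the KO libraries. Once tested, a higher call was close to fixed for them. The count of 3 can therefore not be set against the 23.2% of all tested genes called higher. The defining NK genes Ncr1 and Klrb1c had no count in any library, and Klra8 was too low to test.

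Beside the rise of Tcf4, the 6 plasmacytoid dendritic cell markers summed to 4.44 to 7.82 CPM in control and 6.09 to 6.68 CPM in KO, so the groups overlapped. Most of that sum was Pacsin1 (5.20 ± 1.72 and 4.02 ± 0.545 CPM), which was not called. Ccr9 was called higher (0.841 ± 0.360 and 1.93 ± 0.534 CPM; SD, n = 3; edgeR adjusted p = 0.0480). It missed the threshold under upper-quartile factors and in 5 of 6 fits that left out a library. Spib (0.0914 ± 0.0827 and 0.321 ± 0.0982 CPM) and Bcl11a (0 and 0.119 ± 0.102 CPM) were too low to test, and each KO library lay above each control library. This rests on few reads, with counts of 3, 1 and 3 in control and 9, 8 and 8 in KO for Spib. Bcl11a had 0 in each control library and 6, 1 and 2 in KO. Among all tested genes, 29.9% lay higher in KO without overlap. The defining marker Siglech had 1 count in all libraries together. The 8 B cell markers summed to 7.88 to 18.3 CPM in control and 4.03 to 15.7 CPM in KO. Most of it was Ebf1, except in KO replicate 2 (1.92 of 4.03 CPM). Ebf1 was not called by edgeR (adjusted p = 0.309) but was with the replicate block (adjusted p = 0.0117). Cd79b was called lower (0.603 ± 0.307 and 0.158 ± 0.0933 CPM; edgeR adjusted p = 0.0236), but not without KO replicate 2 or KO replicate 3. It passed the low-count filter only through the control libraries, so the filter itself favoured a lower call. The 6 myeloid markers summed to 2.58 to 5.20 CPM in control and 16.9 to 28.5 CPM in KO, most of it Cd68 (3.19 ± 1.32 and 20.0 ± 6.11 CPM), which was called higher (edgeR adjusted p = 0.000790). Csf1r was also called higher (0.361 ± 0.135 and 1.18 ± 0.535 CPM; SD, n = 3; edgeR adjusted p = 0.0256), but missed the threshold in 4 of 6 fits that left out a library. Cd14 (0.302 ± 0.172 and 0.821 ± 0.338 CPM) was not called by edgeR (adjusted p = 0.0646) but was with the replicate block (adjusted p = 0.0448). Control counts were 7, 10 and 19 for Csf1r and 4, 24 and 7 for Cd14, too few to pass the low-count filter without the KO libraries. The filter itself thus favoured a higher call for both genes. Lyz2, too low to test, had 0, 2 and 4 counts across the control libraries and 46, 11 and 8 across the KO libraries. Adgre1 and Itgam held 0 to 5 counts per library. The Itgam count may be too low, since exons of Gm49368 on the same strand cover 68.7% of its exonic bases. The 6 fibroblast and endothelial markers summed to 28.4 to 41.0 CPM in control and 16.1 to 18.6 CPM in KO, nearly all of it Pecam1, and the 2 CD8 markers to 6.87 to 10.5 and 5.39 to 9.61 CPM. Pecam1 was called lower without overlap (32.5 ± 6.77 and 17.0 ± 1.61 CPM; SD, n = 3; edgeR adjusted p = 0.00302). Its call was kept in each of the 6 fits that left out a library. The part of the marker differences in the results for the 6 genes was not tested.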

How the data were processed

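RNA from 3 control and 3 KO libraries was used, grouped by sample title, and table columns were matched by sample description, with 0 columns left without a sample. The authors deposited raw whole-number counts per gene symbol. STAR, featureCounts, DESeq2 and the build mm10 are named per the submitters' processing notes; versions, annotation and strand setting are not given in the sources used here. Reads carry no stated molecular identifiers.

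The whole table was fitted with edgeR 4.0.16 (R 4.3.3) by its quasi-likelihood test on group alone, after TMM scaling and the filterByExpr filter; the 14268 tested genes held 99.9% of counts. Benjamini-Hochberg adjustment ran over all tested genes, and an adjusted p under 0.05 was a call. The SE is the absolute log2 fold change over the square root of F. The script was tested on simulated data. Exact permutation tests were not used, since 3 against 3 libraries cannot go below p = 0.1. Gene positions, exonic length (98.4% of symbols matched), exon overlap and shared 50-base stretches came from GENCODE M21 (GRCm38); none of the 6 genes shared exonic bases with another gene. Named genes were Rtf1, the 6 genes, members of the lists, and the 3 genes of nearest profile that averaged 5 CPM or more and had a standard symbol; log2 CPM used a prior count of 2. The genes and lists were chosen with earlier results of these data known. Some genes of the lists are not reported here and were left out of the list counts, medians and marker sums.

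Replicate numbers 1, 2 and 3 occur in both groups. Deviations from the group mean correlated across genes at 0.27, 0.13 and 0.379 for libraries of equal number, each over 0.1, although control replicate 2 correlated more with KO replicate 1 (0.204). Equal numbers were therefore read as pairs for the pairwise differences and the replicate block. The main fit and the fits with a library left out used group alone and ignored this pairing. Alternatives were upper-quartile factors, DESeq2 size factors, no scaling beyond library size, 2 filters (any count, and a mean count of at least 10), DESeq2 1.42.0, limma-voom (limma 3.58.1), the replicate block, each library left out, and the libraries numbered 1 and 2 only. Promoter sequences came from RefSeq (GRCm38.p6).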

Additional observations from a re-analysis of the deposited data

How the results depend on the processing

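All 6 genes kept their direction in each of the 15 alternative fits, and Id2, Tcf3 and Tcf12 also kept their side of the threshold. Leaving out 1 library gave log2 fold changes of −1.41 to −0.91 for Id1, −1.12 to −0.54 for Id3 and 0.61 to 1.01 for Tcf4, with the call lost in 4, 1 and 4 of 6 fits; these fits had fewer samples, and the cause was not tested further. The number of called genes ran from 4460 (without KO replicate 2) to 7628 (replicate block), against 6574. The replicate block changed no call among the 6 genes, with log2 fold changes of 1.09 for Id2 (edgeR adjusted p = 9.2e-05), −1.05 for Id1, −0.80 for Id3, −0.61 for Tcf3, 0.82 for Tcf4 and −0.20 for Tcf12 (adjusted p = 0.134). With the longest transcript as gene length the ratio of ID to E protein levels was 1.69 in control and 3.17 in KO, against 2.28 and 4.43; all of the 6 genes except Id1 are shorter on that measure. Library size as the only scaling moved the median of all genes from 0.013 to 0.102. Each of the 6 genes had at least 164 counts in every library, and the counts were not thinned to test the effect of depth.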

Other observations

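Control replicate 3, 1 of the 2 libraries with Y-linked RNA, was the control closest to KO for Id1 (13.3 CPM), Tcf3 (77.5 CPM) and Tcf4 (27.2 CPM), but the control farthest from KO for Id2 (79.3 CPM) and Tcf12 (82.9 CPM). Without it the log2 fold changes were −1.41 for Id1, −0.81 for Tcf3 and 1.01 for Tcf4. With the libraries numbered 1 and 2 only, 2 against 2, they were −1.21, −0.77 and 1.01, and all 3 were called by edgeR (adjusted p = 0.000945, 0.000787 and 0.00102). This library was singled out after its values were seen.

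The ratio of Id2 to Id1 per kilobase was 1.42, 1.87 and 2.84 across control libraries 1 to 3 and 5.55, 10.08 and 11.2 across KO libraries 1 to 3. The ratio of Tcf4 to Tcf3 was 0.0261, 0.0212 and 0.0518 in control, and 0.0713, 0.0896 and 0.0878 in KO, in the same order of replicates. The KO libraries lay above the control libraries in both ratios. Each ratio combines 2 genes already called in opposite directions, so it adds no separate evidence. These ratios are independent of the scaling between libraries, because both genes are read in the same library.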
